A study of Mus musculus with 9 samples.

Results

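The 42 genes described here encode parts of the B cell receptor, other B cell surface proteins, B cell transcription factors, signalling proteins of B cells and the MHC class II pathway. They were followed on 9 arrays of mouse spleen cells labelled as CD4 T cells. A gene was measured where a probe set of the series table carried its symbol alone, and the probe set with the highest mean over the 9 arrays stood for it. This gave 39 of the 42 genes, out of 19938 genes on the array. Lyn, a kinase of the B cell receptor pathway, had no probe set with its symbol. H2-DMb1 and H2-DMb2, which encode beta chains of the peptide editor H2-DM, share 1 probe set that carries both symbols, and no value is given for them.

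The arrays formed 3 groups of 3, all from spleens of C57BL/6J mice. CD69-activated cells were wild-type cells that received an anti-CD69 antibody at 24 h of culture and a secondary antibody to cross-link it at 48 h, each diluted 1 in 200. CD69-/- cells came from mice deficient in CD69, a membrane protein that lymphocytes display soon after activation. Wild-type cells received neither change. All 3 groups were enriched for CD4 T cells and kept for 72 h with beads that carry antibodies to CD3 and CD28, so every group had been stimulated through the T cell receptor. The labels describe no control antibody, give no age or sex of the mice, and call the samples biological replicates without saying whether each came from its own mouse. The p-values therefore measure the spread between these samples.

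B cells bind antigen with membrane immunoglobulin, and its partner chains CD79A and CD79B pass the signal to kinases such as SYK and BTK. They also take up antigen and show its peptides to CD4 T cells on MHC class II molecules, which the invariant chain CD74 and the editors H2-DM and H2-O help to load. CIITA is the coactivator that switches on the class II genes, of which mouse T cells make little.

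Cd69 was lower in every CD69-/- array, with log2 values of 11.80, 11.84 and 11.74 in CD69-activated cells, 9.65, 9.49 and 9.63 in CD69-/- cells and 12.03, 12.12 and 12.37 in wild-type cells. All values are the authors' log2 RMA values, with array medians of 7.40 to 7.56, and precision is limited by having 3 arrays a group. Each of the 39 genes lay above those medians in every group, so B cell genes gave signal in cells labelled as CD4 T cells. The CD8 T cell genes did too, with Cd8a at 11.21 to 11.30 and Cd8b1 at 12.37 to 12.42 in wild-type arrays. Xist, expressed in female cells, was 5.77 to 6.26 in CD69-/- arrays, against 12.89 to 13.01 in CD69-activated arrays and 12.48 to 12.71 in wild-type arrays. The Y-linked gene Eif2s3y was 9.68 to 9.85 in CD69-/- arrays, against 4.31 to 4.41 in CD69-activated arrays and 4.30 to 4.35 in wild-type arrays. Sex pattern and genotype therefore cannot be told apart in either comparison with CD69-/- cells.

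Without CD69, all 39 measured genes were lower than in wild type, and none was higher. A call here is an adjusted p below 0.05 after Benjamini-Hochberg correction across the 19938 genes. Over all genes 6.78% were called lower in CD69-/- cells and 8.36% higher. The log2 fold changes of the 39 genes ran from -0.97 for Fcer2a to -0.17 for Ighm, with a median of -0.47 against -0.01 over all genes. Every one of the 39 had its 3 CD69-/- values below its 3 wild-type values, which held for 15.9% of all genes. These are bulk samples, in which fewer B cells and less RNA per B cell cannot be told apart. The list of CD4 T cell markers holds Cd4 and general T cell genes such as Cd5, which CD8 T cells also express. These markers moved the other way, with 11 of 11 measured called higher in CD69-/- cells. Their mean per array lay 0.45 to 0.48 above the wild-type mean on the log2 scale, against -0.52 to -0.44 for the 39 genes. The part of the cell mix in the result was not tested.

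After CD69 ligation most of these genes did not pass the test against wild type. In CD69-activated cells 4 of the 39 were called higher, 7 lower, and 28 did not pass. That is 10.3% higher and 17.9% lower, against 10.1% and 13.7% over all genes, so neither share stood far from the background. The median log2 fold change was -0.03, against 0.02 over all genes. The genes called higher were Blk at 0.55, Cd180 at 0.31, Cd72 at 0.21 and Cr2 at 0.17. Those called lower were Fcer2a at -0.41, Vpreb3 at -0.39, Pou2af1 at -0.27, H2-DMa at -0.26, Cd83 at -0.18, Ms4a1 at -0.16 and Fcgr2b at -0.15. Scaling moved this split: median centring gave 6 higher and 7 lower, and cyclic loess gave 6 and 6. The 3 CD69-activated values lay above all wild-type values for 8 of the 39 genes and below them for 13. Over all genes these shares were 18.1% and 17.9%. The share above was close to that among the 39, and the share below was larger among the 39.

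Between CD69-activated and CD69-/- cells, 37 of the 39 genes were called higher in CD69-activated cells and none lower. Over all genes 21.6% were called higher and 21.0% lower. The median difference was 0.48, against 0.04 over all genes. The same 37 genes had all 3 CD69-activated values above all 3 CD69-/- values, as 27.3% of all genes did. The remaining pair, Pou2af1 and H2-DMa, were low in both groups. This comparison shares its arrays with the other 2, so it is not a separate line of evidence. Genotype, antibody and sex pattern all differ in it and cannot be told apart. Cell markers moved on the same contrast. All 11 CD4 T cell markers (median -0.50) and both CD8 T cell markers were called lower in CD69-activated than in CD69-/- cells, and of 19 myeloid markers 13 were higher and 2 lower. Their part in the result was not tested.

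**Figure D1:**
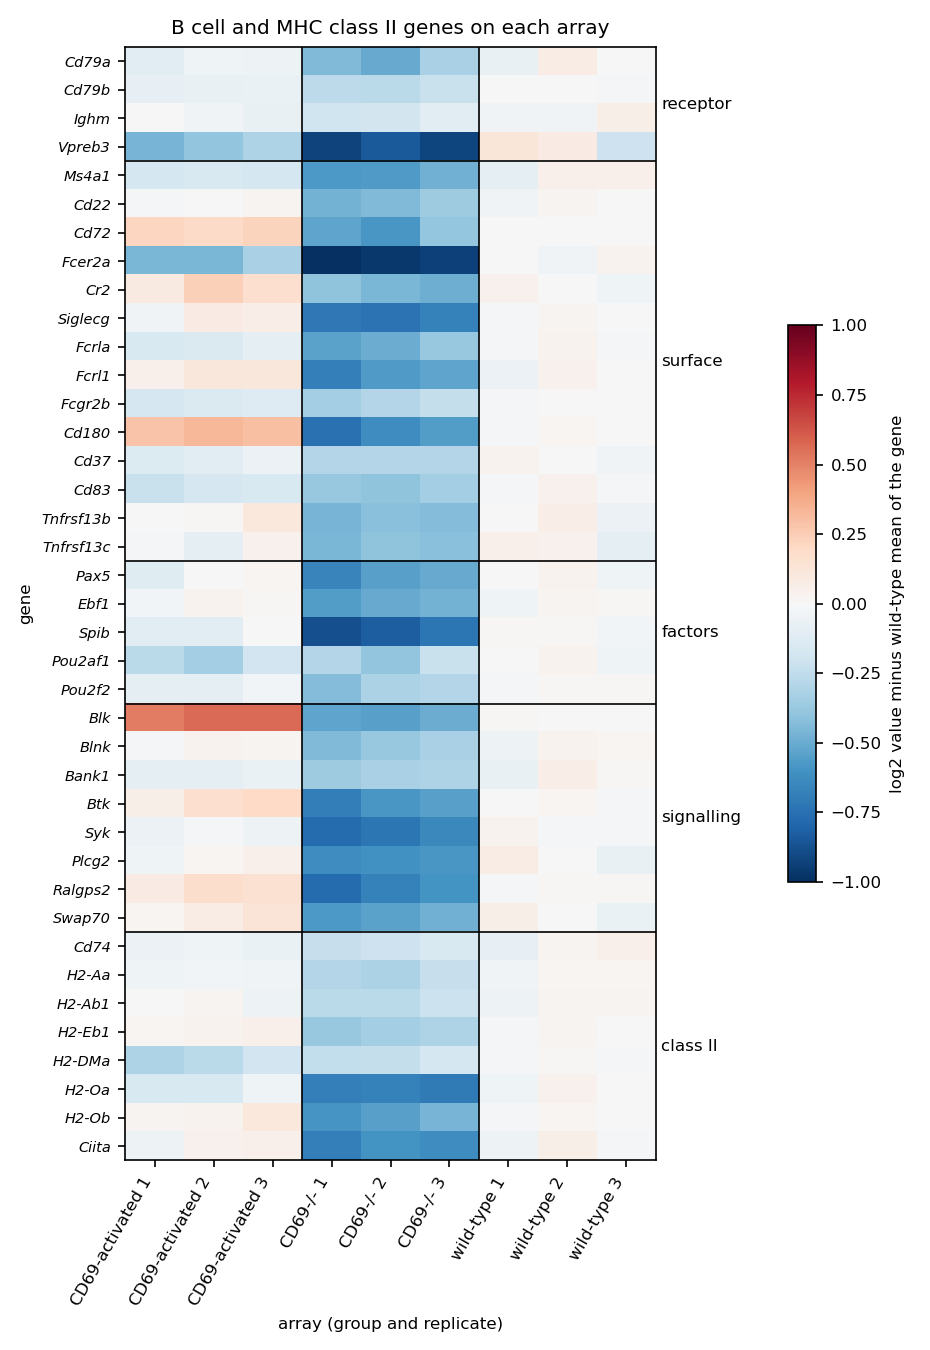
Heat map of the 39 measured genes (rows, grouped by role) on the 9 arrays (columns: CD69-activated, CD69-/-, wild-type), coloured by log2 value minus the gene's wild-type mean. The 3 CD69-/- columns are blue in every row, while the CD69-activated columns are near white for most genes, red for Blk and blue for Fcer2a and Vpreb3.

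**Figure D2:**
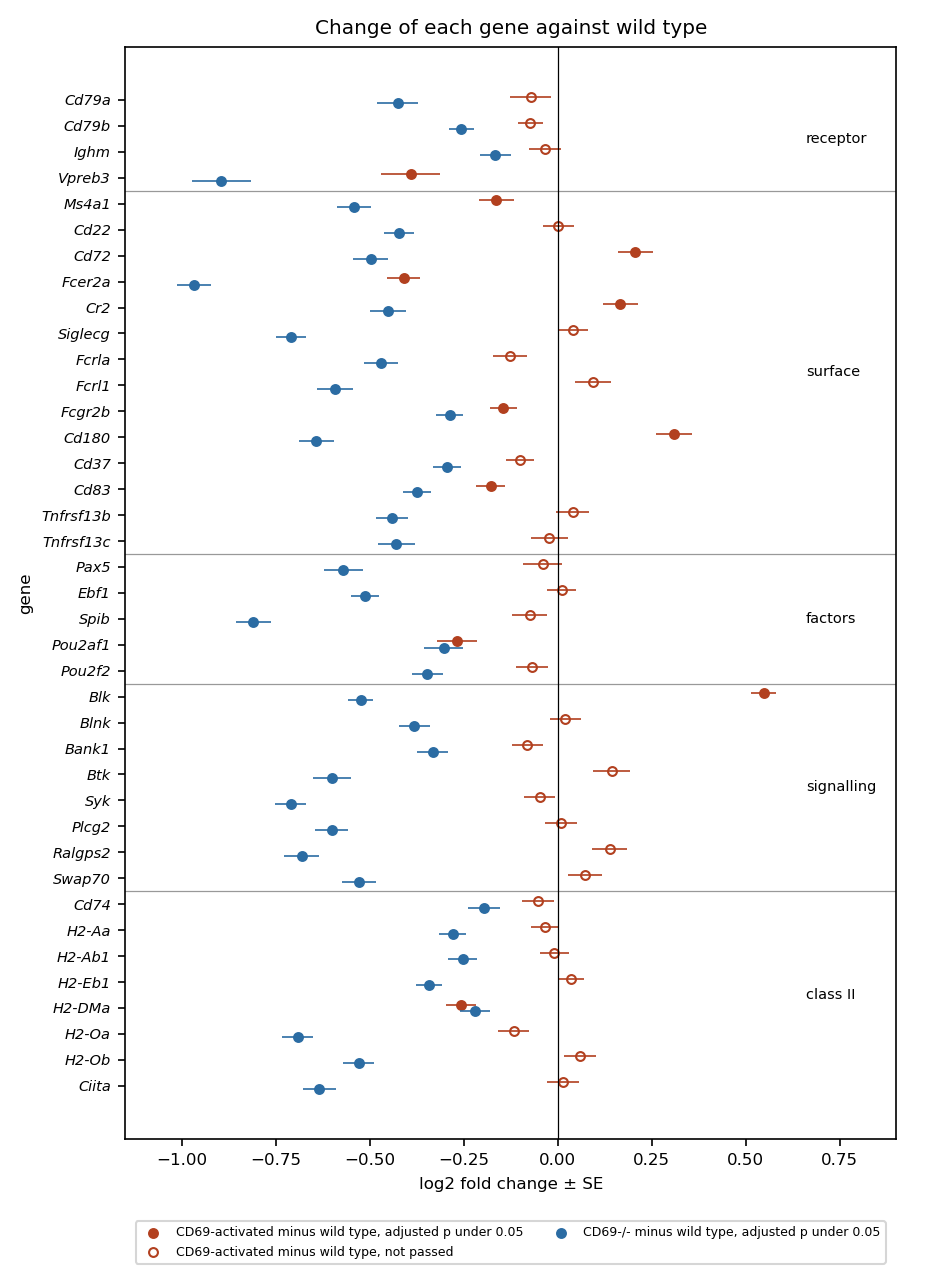
Log2 fold change ± SE of each of the 39 genes in CD69-activated and in CD69-/- cells, both against wild type, with filled points for an adjusted p under 0.05 and open points for the rest. All 39 CD69-/- points are filled and lie left of 0, from -0.97 to -0.17, and the CD69-activated points spread around 0 with 11 filled.

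Of the B cell receptor genes, all 4 were called lower in CD69-/- cells and 1 in CD69-activated cells. All 4 were called higher in CD69-activated than in CD69-/- cells. Over all genes 6.78%, 13.7% and 21.6% were called in these directions. Vpreb3, which encodes a small protein that associates with immunoglobulin chains in B lineage cells, had log2 values of 9.61, 9.68 and 9.77 in CD69-activated cells, 9.15, 9.24 and 9.16 in CD69-/- cells and 10.20, 10.16 and 9.87 in wild-type cells. The 3 groups did not overlap, with CD69-activated cells in between. Vpreb3 fell by 0.89 in CD69-/- cells (SE 0.079, adjusted p = 1.94e-05) and by 0.39 in CD69-activated cells (adjusted p = 0.00424). Cd79b, a signalling chain of the receptor, had values of 13.53, 13.54 and 13.55 in CD69-activated cells, 13.35, 13.34 and 13.39 in CD69-/- cells and 13.62, 13.62 and 13.60 in wild-type cells. Its groups did not overlap either, but only the CD69-/- change passed against wild type (-0.26, adjusted p = 0.000266, against -0.07 and 0.138 after activation). Its partner Cd79a had values of 13.06, 13.13 and 13.12 in CD69-activated cells, 12.73, 12.67 and 12.85 in CD69-/- cells and 13.10, 13.25 and 13.18 in wild-type cells. CD69-activated and wild-type arrays overlapped for Cd79a, and CD69-/- cells were lower by 0.43 (adjusted p = 0.000236).

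Ighm, the constant region of the IgM heavy chain, changed least of the 39 in CD69-/- cells. Its values were 11.48, 11.44 and 11.40 in CD69-activated cells, 11.27, 11.29 and 11.36 in CD69-/- cells and 11.44, 11.44 and 11.53 in wild-type cells. The CD69-/- arrays lay below both other groups. The difference of -0.17 from wild type (adjusted p = 0.0218) did not pass with arrays centred on their medians (adjusted p = 0.0594), nor without wild-type replicate 3, CD69-/- replicate 1 or CD69-/- replicate 2 (0.0897, 0.0892 and 0.0719). Its higher level in CD69-activated than in CD69-/- cells (0.13, adjusted p = 0.0265) was lost with median centring (0.0759) and without CD69-/- replicate 1 or 2 or CD69-activated replicate 1 or 2 (0.0537 to 0.0935). Both other probe sets of Ighm showed larger falls, of -0.40 and -0.34 (adjusted p = 4.61e-05 and 0.000115 over all probe sets). They lie in an antigen receptor locus, where transcripts share sequence, so the gene's own level is uncertain.

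Among 14 surface receptors, all 14 were called lower in CD69-/- cells, against 6.78% of all genes. In CD69-activated cells 3 were called higher and 4 lower than in wild type. Those shares were 21.4% and 28.6%, against 10.1% and 13.7% over all genes. Fcer2a, which encodes CD23, the low-affinity IgE receptor of B cells, had log2 values of 11.20, 11.20 and 11.33 in CD69-activated cells, 10.65, 10.69 and 10.72 in CD69-/- cells and 11.65, 11.62 and 11.69 in wild-type cells. The 3 groups were apart, with wild type highest. Its log2 fold change against wild type was -0.97 in CD69-/- cells (SE 0.044, 1.96-fold, adjusted p = 3.69e-07) and -0.41 in CD69-activated cells (1.33-fold, adjusted p = 8.12e-05). Cd180, a Toll-like receptor homologue of B cells, gave 12.55, 12.60 and 12.57 in CD69-activated cells, 11.52, 11.65 and 11.71 in CD69-/- cells and 12.25, 12.29 and 12.26 in wild-type cells. Here CD69-activated cells were highest and CD69-/- cells lowest, with no overlap. The log2 fold changes against wild type were 0.31 in CD69-activated cells (adjusted p = 0.000784) and -0.64 in CD69-/- cells (adjusted p = 6.4e-06).

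The same order held for Cd72, an inhibitory co-receptor of the B cell receptor. Its values were 12.83, 12.81 and 12.84 in CD69-activated cells, 12.09, 12.04 and 12.23 in CD69-/- cells and 12.62 in all 3 wild-type arrays. The wild-type values of Cd72 are identical in the deposited table, as they are for 574 genes. They add no spread to the SE of Cd72, so its adjusted p-values may be too small. Cd72 rose by 0.21 in CD69-activated cells (adjusted p = 0.00842) and fell by 0.50 in CD69-/- cells (adjusted p = 3.06e-05). Cr2, the complement receptor CD21, gave 8.78, 8.93 and 8.86 in CD69-activated cells, 8.29, 8.23 and 8.20 in CD69-/- cells and 8.73, 8.69 and 8.65 in wild-type cells. Its rise of 0.17 in CD69-activated cells (adjusted p = 0.0256) did not pass when only the 6 arrays compared were fitted (0.0519), nor without wild-type replicate 2 or 3 or CD69-activated replicate 2 or 3 (0.0572 to 0.0894).

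Siglecg, an inhibitory receptor that binds sialic acid, had values of 11.13, 11.25 and 11.23 in CD69-activated cells, 10.45, 10.43 and 10.49 in CD69-/- cells and 11.15, 11.19 and 11.16 in wild-type cells. CD69-activated and wild-type arrays overlapped, and CD69-/- cells lay 0.71 below wild type (adjusted p = 1.42e-06). Cd22, a related receptor, gave 13.10, 13.11 and 13.14 in CD69-activated cells, 12.64, 12.67 and 12.76 in CD69-/- cells and 13.08, 13.14 and 13.12 in wild-type cells. It too overlapped between CD69-activated and wild-type cells, with a difference of 0.00 (SE 0.040). Ms4a1, which encodes CD20, fell by 0.54 in CD69-/- cells and by 0.16 in CD69-activated cells (adjusted p = 1.49e-05 and 0.0242). The second call was lost after cyclic loess (0.0517) and without wild-type replicate 2 or 3 or CD69-activated replicate 1 or 3 (0.0553 to 0.0942). The other 7 surface genes differed from wild type by -0.59 to -0.29 in CD69-/- cells. They were the Fc receptor-like genes Fcrl1 and Fcrla, the inhibitory IgG receptor Fcgr2b, the tetraspanin Cd37, the activation marker Cd83, and Tnfrsf13b and Tnfrsf13c, which encode TACI and the BAFF receptor. Of these, Cd83 and Fcgr2b were also called lower in CD69-activated cells (adjusted p = 0.00552 and 0.0143).

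**Figure D3:**
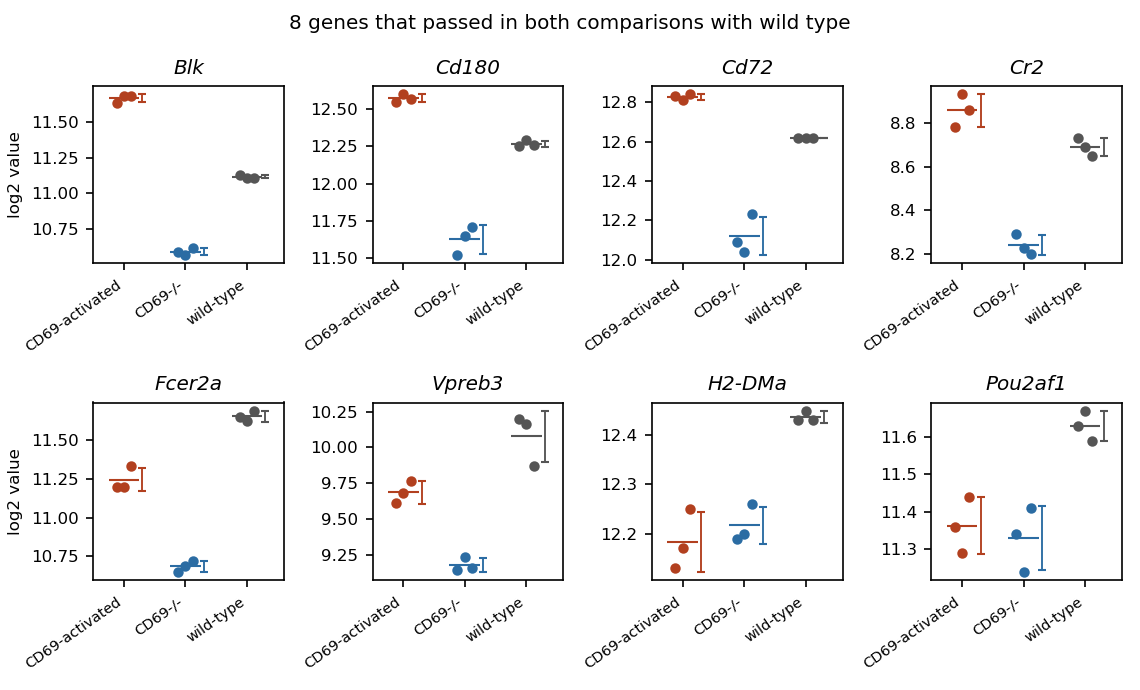
Log2 value of 8 genes on each array (points) in CD69-activated, CD69-/- and wild-type cells, with group means (lines) and SD bars, n = 3 per group. Blk, Cd180, Cd72 and Cr2 are highest in CD69-activated cells, while H2-DMa and Pou2af1 overlap between CD69-activated and CD69-/- cells, both below wild type.

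All 5 transcription factors were called lower in CD69-/- cells. Spib, an Ets family factor of B cells, had log2 values of 12.09, 12.09 and 12.19 in CD69-activated cells, 11.32, 11.37 and 11.47 in CD69-/- cells and 12.21, 12.21 and 12.17 in wild-type cells. Its CD69-/- level was 1.75-fold below wild type (-0.81, SE 0.047, adjusted p = 1.58e-06), and CD69-activated arrays overlapped wild type (-0.07, adjusted p = 0.286). Pax5, which sets B cell identity, gave 12.21, 12.33 and 12.35 in CD69-activated cells, 11.67, 11.79 and 11.83 in CD69-/- cells and 12.34, 12.37 and 12.29 in wild-type cells. Ebf1, which acts with it, gave 12.28, 12.34 and 12.32 in CD69-activated cells, 11.75, 11.80 and 11.83 in CD69-/- cells and 12.26, 12.33 and 12.32 in wild-type cells. Both overlapped between CD69-activated and wild-type cells, and both were lower in CD69-/- cells, by 0.57 and 0.51 (adjusted p = 2.42e-05 and 6.83e-06). Pou2f2, which encodes the octamer-binding factor OCT2, fell by 0.35 in CD69-/- cells (adjusted p = 0.000175). In CD69-activated cells its difference was -0.07 (adjusted p = 0.27).

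Pou2af1, the coactivator of the octamer-binding factors, followed another order. Its values were 11.36, 11.29 and 11.44 in CD69-activated cells, 11.34, 11.24 and 11.41 in CD69-/- cells and 11.63, 11.67 and 11.59 in wild-type cells. CD69-activated and CD69-/- arrays overlapped, both below every wild-type array. The difference from wild type was -0.27 in CD69-activated cells and -0.30 in CD69-/- cells (adjusted p = 0.00378 and 0.00229), and between CD69-activated and CD69-/- cells it was 0.04 (SE 0.053, adjusted p = 0.605).

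All 8 measured signalling genes were called lower in CD69-/- cells and higher in CD69-activated than in CD69-/- cells. Blk, a Src family kinase of B cells, had log2 values of 11.63, 11.68 and 11.68 in CD69-activated cells, 10.59, 10.57 and 10.62 in CD69-/- cells and 11.13, 11.11 and 11.11 in wild-type cells. The 3 groups were far apart beside a spread of at most 0.05 within each. Blk was 1.46-fold higher in CD69-activated than in wild-type cells (0.55, SE 0.034, adjusted p = 1.51e-06) and 1.44-fold lower in CD69-/- than in wild-type cells (adjusted p = 2.88e-06). Between CD69-activated and CD69-/- cells it differed 2.10-fold (adjusted p = 4.24e-09), more than any other of the 39 genes. Ralgps2, an exchange factor for Ral GTPases, gave 11.27, 11.36 and 11.34 in CD69-activated cells, 10.42, 10.51 and 10.59 in CD69-/- cells and 11.17, 11.20 and 11.20 in wild-type cells. Btk, a Tec family kinase encoded on the X chromosome, gave 10.61, 10.72 and 10.75 in CD69-activated cells, 9.86, 9.97 and 10.01 in CD69-/- cells and 10.55, 10.57 and 10.53 in wild-type cells.

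Neither Ralgps2 nor Btk overlapped between any of the groups. Their differences of 0.14 each between CD69-activated and wild-type cells missed the threshold (adjusted p = 0.0515 and 0.0565). Both passed with median centring (0.0437 and 0.0475) and with cyclic loess (0.0126 and 0.0102). Among the fits that left out 1 array, they passed only without CD69-activated replicate 1 (0.0414 and 0.0236). Fitted on the compared arrays alone, Ralgps2 passed (0.0396) and Btk did not. Syk, the kinase that CD79A and CD79B recruit, gave 11.54, 11.58 and 11.55 in CD69-activated cells, 10.83, 10.88 and 10.96 in CD69-/- cells and 11.64, 11.59 and 11.58 in wild-type cells. CD69-/- cells lay 0.71 below wild type (adjusted p = 1.6e-06), and CD69-activated cells came within 0.05 of it. Bank1, a scaffold protein, gave 12.86, 12.86 and 12.88 in CD69-activated cells, 12.59, 12.62 and 12.64 in CD69-/- cells and 12.87, 13.01 and 12.96 in wild-type cells. Its CD69-/- change was the smallest of the 8 (-0.33, adjusted p = 0.000219). The phospholipase gene Plcg2, Swap70, which encodes an actin-binding signalling protein, and the adaptor gene Blnk differed from wild type by -0.60, -0.53 and -0.38 in CD69-/- cells.

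All 8 measured genes of the MHC class II group were called lower in CD69-/- cells, and 1 of them, H2-DMa, in CD69-activated cells. Several class II promoters carry an X box, which the RFX complex binds, followed by a Y box for NF-Y, and CIITA acts through this pair. RefSeq promoter windows (GRCm38.p6, 250 bases before to 50 after each gene start) were found for 33 of the 42 genes, 41 windows in all, among 32851 windows of the table. The 14-base X box consensus and the Y box core, ATTGG, were searched on both strands. An exact X box was found in 0.0609% of all windows and, among the 42 genes, in H2-DMb1 alone. The Y box core was found in 37.4% of all windows and in 13 of the 33 genes, among them all 7 class II genes with a window. With up to 1 mismatch in the X box, a setting chosen after the exact search, the pair on the same strand with 10 to 30 bases between was found in 21 windows (0.0639%). Among the 42 genes 4 windows held it, all on the + strand, and 3 of them needed the mismatch. H2-Aa, H2-DMa and H2-Oa had the Y box core, but this search found no pair there. An X box with more than 1 mismatch to the consensus would have been missed, so its absence was not shown. The 4 stretches are shown to compare the spacing and letters of the pair, with capitals for the X box match and the Y box core.
H2-Ob, chr17:34238814-34238852: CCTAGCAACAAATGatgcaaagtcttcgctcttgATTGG
H2-Eb1, chr17:34305772-34305812: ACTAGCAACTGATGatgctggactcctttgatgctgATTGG
H2-DMb1, chr17:34153093-34153134: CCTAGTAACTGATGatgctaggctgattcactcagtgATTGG
H2-DMb2, chr17:34145122-34145163: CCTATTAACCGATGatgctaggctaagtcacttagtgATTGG

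Of the 4 genes with this layout, H2-Ob and H2-Eb1 were measured. H2-Ob, the beta chain of the H2-DM antagonist H2-O, had log2 values of 13.04, 13.05 and 13.12 in CD69-activated cells, 12.42, 12.47 and 12.55 in CD69-/- cells and 12.99, 13.03 and 13.01 in wild-type cells. It fell by 0.53 in CD69-/- cells (adjusted p = 9.44e-06). Its CD69-activated values lay just above wild type, and that difference did not pass (0.06, adjusted p = 0.353). H2-Eb1, which encodes a class II beta chain, fell by 0.34 in CD69-/- cells (adjusted p = 5.39e-05). Its difference in CD69-activated cells was 0.04 (adjusted p = 0.511). H2-Oa, the alpha chain of H2-O, gave 11.57, 11.57 and 11.68 in CD69-activated cells, 11.04, 11.05 and 11.02 in CD69-/- cells and 11.68, 11.77 and 11.73 in wild-type cells. It had the largest fall of the class II group in CD69-/- cells (-0.69, adjusted p = 1.76e-06), and its CD69-activated difference of -0.12 did not pass (adjusted p = 0.0642). Ciita gave 11.00, 11.09 and 11.10 in CD69-activated cells, 10.37, 10.45 and 10.43 in CD69-/- cells and 11.00, 11.11 and 11.04 in wild-type cells. It overlapped between CD69-activated and wild-type cells, and CD69-/- cells were 1.55-fold lower (-0.63, SE 0.043, adjusted p = 4.02e-06).

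H2-DMa, the alpha chain of H2-DM, was low in both changed groups. Its values were 12.13, 12.17 and 12.25 in CD69-activated cells, 12.19, 12.20 and 12.26 in CD69-/- cells and 12.43, 12.45 and 12.43 in wild-type cells. It fell by 0.26 in CD69-activated cells and by 0.22 in CD69-/- cells (adjusted p = 0.000817 and 0.0028), and between CD69-activated and CD69-/- cells it differed by -0.04 (SE 0.040, adjusted p = 0.476). Cd74, the invariant chain, gave 13.51, 13.53 and 13.50 in CD69-activated cells, 13.34, 13.36 and 13.42 in CD69-/- cells and 13.49, 13.60 and 13.62 in wild-type cells. CD69-activated values lay inside the wild-type range, and the CD69-/- fall was 0.20 (adjusted p = 0.00923). Its higher level in CD69-activated than in CD69-/- cells (0.14, adjusted p = 0.0198) did not pass with median centring (0.0541), nor without CD69-/- replicate 1 or 2 or CD69-activated replicate 2 (0.0516 to 0.0733). H2-Aa and H2-Ab1, which encode class II alpha and beta chains, differed from wild type by -0.28 and -0.25 in CD69-/- cells. In CD69-activated cells the differences were -0.03 and -0.01.

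The brightest probe sets had the smallest median change in CD69-/- cells, although Ighm, with a wild-type mean of 11.47, changed least. The 10 genes with wild-type means of 13 or more had a median log2 fold change of -0.32, the 11 from 12 to under 13 had -0.51, the 13 from 11 to under 12 had -0.60, and the 5 below 11 had -0.45. Across the 39 genes, change and wild-type signal correlated at r = 0.404 and rho = 0.477, given as a description over genes that share the same 6 arrays. Array signal does not rank the abundance of different genes. Of all 91 genes with wild-type means of 13 or more, these 10 included, 13.2% were called lower in CD69-/- cells. All 10 were among them and made up most of that share.

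**Figure D4:**
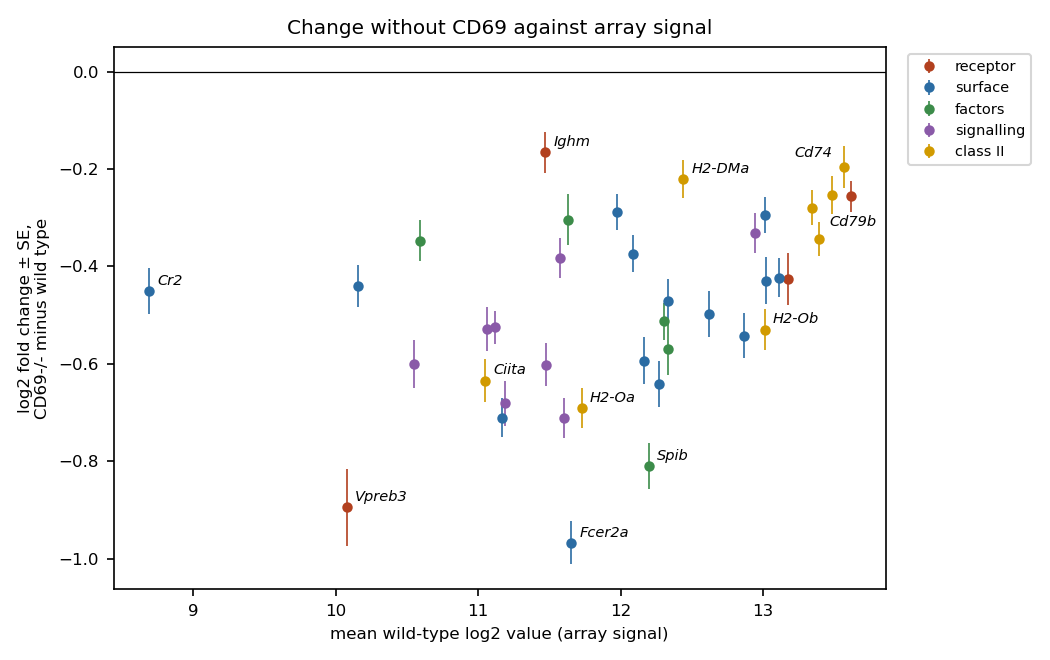
Log2 fold change ± SE of each of the 39 genes in CD69-/- cells against wild type (y axis) over its mean wild-type log2 value (x axis), coloured by role. Genes with a signal of 13 or more, such as Cd74 and Cd79b, lie between -0.53 and -0.20, while Fcer2a, Vpreb3 and Spib lie at -0.97, -0.89 and -0.81.

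The octamer, which OCT2 and its coactivator bind in immunoglobulin promoters, was searched on both strands as ATGCAAAT. It was present in 1.74% of all promoter windows, and among the 33 genes in Vpreb3 and Blnk. The 250 bases before the start of Vpreb3, the receptor gene that fell furthest, are shown with the octamer, here as its reverse complement, in capitals.
Vpreb3, chr10:75948050-75948299, + strand: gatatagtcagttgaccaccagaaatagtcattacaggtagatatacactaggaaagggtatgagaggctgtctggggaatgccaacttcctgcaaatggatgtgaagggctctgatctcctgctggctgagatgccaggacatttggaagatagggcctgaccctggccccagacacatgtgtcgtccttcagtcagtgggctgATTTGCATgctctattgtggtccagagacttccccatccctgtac
The match begins at base -45 from the gene start, and that in Blnk at base -130. The EBF palindrome, searched on both strands, was present in 0.904% of windows and, of the 33 genes, in Cd22. A match of letters is not a bound site.

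Other genes of the B lineage moved with the 39 in CD69-/- cells. Of 25 measured, 19 were called lower and none higher, with a median of -0.30. For this list and those below, the shares over all genes were 6.78% lower and 8.36% higher in CD69-/- cells. In CD69-activated cells they were 13.7% lower and 10.1% higher. Hhex and Bcl11a, transcription factors, and Zfp318, needed for IgD expression, fell by 0.74, 0.68 and 0.68 (adjusted p = 4.74e-06, 5.66e-06 and 8.64e-07). In CD69-activated cells 6 were called higher and 6 lower. Dtx1, a target of Notch signalling, rose by 0.48 (adjusted p = 5.8e-06), while Cd40, the receptor for T cell help, and Cxcr5, the follicle homing receptor, fell by 0.46 and 0.42 (adjusted p = 0.000129 and 8.12e-05). Against CD69-/- cells, 15 of the 25 were called higher in CD69-activated cells and 2 lower, with a median of 0.20. Over all genes 21.6% were called higher and 21.0% lower. Zfp318 had the largest rise there, 1.01 (adjusted p = 9.39e-09).

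Genes of the B cell receptor pathway that T cells or myeloid cells also use were more mixed. Of 25 measured, 10 were called lower and 2 higher in CD69-/- cells, with a median of -0.13. Pirb, an inhibitory receptor of B and myeloid cells, and Rasgrp3, a Ras exchange factor, fell by 0.57 and 0.43 (adjusted p = 0.001 and 2.9e-05), and Cd5, also a T cell marker, rose by 0.52 (adjusted p = 6.41e-06). In CD69-activated cells 5 were called higher and 4 lower, and after cyclic loess 9 and 2. The exchange factor Vav2 rose by 0.24 (adjusted p = 0.000348), and the kinase Fgr and the adaptor Dapp1 fell by 0.35 and 0.19 (adjusted p = 0.00538 and 0.00382). Of 11 plasma cell genes 5 were called lower and 2 higher in CD69-/- cells, and 6 lower and none higher in CD69-activated cells. Median centring gave 4 lower and 3 higher in CD69-/- cells, and either scaling gave 5 lower and 1 higher in CD69-activated cells. Jchain, which joins polymeric antibodies, fell by 0.97 in CD69-/- cells and by 0.62 in CD69-activated cells (adjusted p = 1.09e-06 and 1.64e-05). Irf4, a factor of plasma cells and activated T cells, rose by 0.50 in CD69-/- cells and fell by 0.44 in CD69-activated cells (adjusted p = 4.26e-06 and 9.28e-06).

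Of 16 class II promoter factors and antigen processing genes, 6 were called lower and 1 higher in CD69-/- cells, with a median of -0.03. Ifi30, a lysosomal thiol reductase, fell by 0.46 in CD69-/- cells and by 0.45 in CD69-activated cells (adjusted p = 2.6e-05 and 3.07e-05). Ctsd, a lysosomal protease, rose by 0.42 in CD69-/- cells (adjusted p = 0.000126). Marchf1, a ubiquitin ligase that removes class II from the surface, fell there by 0.25 (adjusted p = 0.00253). In CD69-activated cells 2 of the 16 were called lower and 1 higher, or 2 and 2 after cyclic loess. Of 13 MHC class I genes, 3 were called higher and 1 lower in CD69-/- cells, and their mean per array lay 0.04 to 0.05 above the wild-type mean. With median centring the calls were 3 higher and 0 lower. In CD69-activated cells 1 was called higher and 4 lower (2 and 4 after cyclic loess), with Pdia3, a chaperone of class I loading, lower by 0.38 (adjusted p = 0.000198).

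Of 9 genes listed for costimulation by antigen-presenting cells, 3 were called lower in CD69-/- cells and 6 in CD69-activated cells, none higher in either. The list also holds ligands of the inhibitory receptor PD-1, and bulk samples do not show which cells express these genes. With median centring 1 was called higher in CD69-/- cells. Cd80, a ligand of CD28, differed from wild type by -0.50 in CD69-activated cells and by -0.50 in CD69-/- cells (adjusted p = 1.94e-05 and 1.95e-05). In CD69-activated cells Tnfsf9, the ligand of 4-1BB, and Pdcd1lg2, a ligand of PD-1, fell by 0.59 and 0.58 (adjusted p = 0.0015 and 0.00141). Icosl, the ligand of ICOS, fell by 0.33 in CD69-/- cells (adjusted p = 0.000281).

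**Figure D5:**
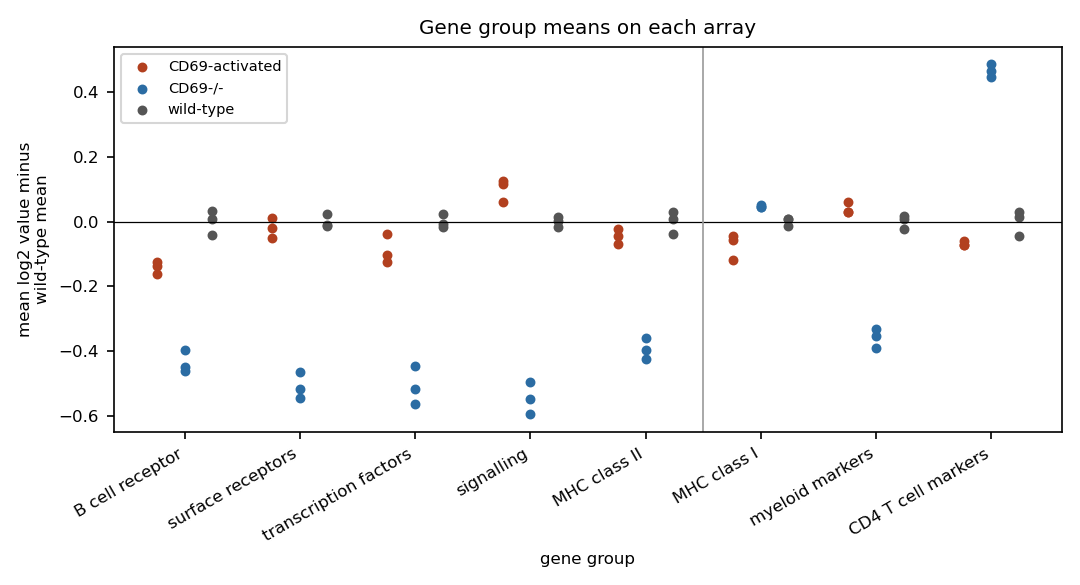
Mean of the genes in each group per array, as log2 value minus the wild-type mean of each gene, for CD69-activated, CD69-/- and wild-type arrays (points, 3 per group). The 5 groups of B cell and class II genes and the myeloid markers lie below 0 in CD69-/- arrays, CD4 T cell markers lie 0.45 to 0.48 above 0, and MHC class I genes lie near 0.

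Markers of other cells moved on the same arrays. Of the 19 myeloid markers (monocytes, macrophages, dendritic cells), 11 were called lower in CD69-/- cells and none higher. Their mean lay between -0.39 and -0.33 in CD69-/- arrays and between 0.03 and 0.06 in CD69-activated arrays, relative to wild type. Their median change in CD69-/- cells was -0.23, and the lowest was -1.86. Their mean signal in wild-type arrays was 7.84 to 7.89, not far above the array medians. In CD69-activated cells 5 were called higher and 2 lower. Several of the class II and signalling genes among the 39 are also used by such cells. Both CD8 T cell markers were called higher in CD69-/- cells and lower in CD69-activated cells, and their mean lay 0.50 to 0.56 above and 0.31 to 0.51 below the wild-type mean. Of 5 NK cell markers 4 were called lower and 1 higher in CD69-/- cells, and 4 lower in CD69-activated cells. The mean signal of these NK cell markers in wild-type arrays, 7.83 to 7.87, was also not far above the array medians. Of 6 neutrophil markers none was called against wild type, but their mean signal in wild-type arrays, 6.40 to 6.45, lay below the array medians. Of 5 plasma cell markers 3 were called lower and 1 higher in CD69-/- cells, and 2 lower in CD69-activated cells. The part of these cells in the results for the 39 genes was not tested.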

How the data were processed

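Total RNA of 9 samples, labelled as sense-strand target, was read on 1-colour Affymetrix mouse gene arrays, per the labels' protocols. The deposited values are log2 expression values that the authors made with RMA (package oligo, under R 2.12.1), as listed in the submitters' processing notes. No source used here states the RMA settings. The table carries no detection calls, and RMA tends to compress fold changes.

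Of 35556 probe sets, 21789 carried 1 gene symbol in the platform annotation, 1621 several and 12146 none. The brightest probe set by the mean of all arrays stood for each of 19938 genes (999 had more than 1). The deposited values were fitted without further scaling in limma 3.58.1 (R 4.3.3). One model with 3 group means took in the 9 arrays, followed by eBayes with no trend, two-sided tests and Benjamini-Hochberg adjustment over all genes. The procedure was tested on simulated data. The members, the 5 role groups, 6 further gene lists and 7 marker lists were chosen with earlier results of these data known. Lists share some genes, such as Cd5, Cd40 and Jchain, and most B cell markers are among the 42 genes.

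Values on every array were given, in each role group, for the called gene with the largest change in each comparison, the brightest gene, and, among genes whose call or sign differs between the 2 comparisons with wild type, up to 3 with the largest gap between them. From each further list up to 3 called genes with the largest change per comparison could be named. Cr2 is outside this rule and was added after its values were seen. Replicate numbers did not pair the arrays: deviations from group means correlated at -0.242 to 0.142 between same-numbered arrays. Under median centring all genes called split into 70.5% higher in CD69-/- cells, against 55.2% as deposited (51.0% with cyclic loess). Tried as alternatives were a 1.2-fold minimum (treat), cyclic loess or median centring, a filter on the dimmest 25% of genes, all probe sets or their mean per gene, a fit of the compared arrays alone, array weights, a trended robust prior, the replicate number as a block and the omission of single arrays. Promoter sequences came from RefSeq (GRCm38.p6). Figures used matplotlib 3.10.9 (Python 3.11.15).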

Additional observations from a re-analysis of the deposited data

How the results depend on the processing

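No direction of a called gene among the 39 reversed under the alternatives run. Total counts of calls, among the 39 and over all genes, stayed within 1.5 times their value except under a minimum fold and a trended prior, given next. Against a 1.2-fold minimum (treat), which by construction calls fewer genes, 21 of the 39 were called in CD69-/- cells against wild type, all lower, and 423 of all genes in place of 3018. Each role group lost calls there, and of the class II group only H2-Oa, H2-Ob and Ciita still passed. In CD69-activated cells against wild type 1 of the 39 was called, 1 higher and 0 lower, and 483 of all genes in place of 4742. In CD69-activated against CD69-/- cells 22 were called, all higher, and 1562 of all genes in place of 8501. With an intensity trend and robust prior 17 were called in CD69-activated cells against wild type, 11 of them lower, and the cause was not tested. The calls gained there were Btk and Ralgps2, higher, and Cd79b, Fcrla, Cd37 and H2-Oa, lower. Counts in 1 direction moved more with scaling. Median centring gave 2555 higher and 1071 lower of all genes in CD69-/- cells, in place of 1667 and 1351. In CD69-activated cells median centring and cyclic loess each called 3 signalling genes higher in place of 1. Cyclic loess gave 9 higher and 2 lower of the other receptor pathway genes in place of 5 and 4, and 4 myeloid markers lower in place of 2. Leaving out 1 array at a time gave 38 to 39 calls for CD69-/- against wild type (2212 to 2463 over all genes). It gave 9 to 12 for CD69-activated against wild type, with 3 to 6 higher and 6 to 8 lower (3488 to 4551), and 35 to 37 for CD69-activated against CD69-/- (7119 to 8140). With the replicate number as a block, although the numbers do not pair the arrays, 39, 13 and 37 of the 39 were called and 2609, 4345 and 8055 of all genes. With 3 arrays a group and no detection calls, small differences of dim probe sets were not resolved.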
